A study of Mus musculus with 8 samples.

Results

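The genes described here are 10 that sense lipopolysaccharide (LPS) and other bacterial products at the cell surface, or act directly under such receptors, out of 22180 genes measured in mouse liver. They are Cd14, Lbp, Ly96, Tlr4, Tlr1, Tlr2, Tlr5, Tlr6, Myd88 and Irak3, and all 10 were measured. The genes were chosen by name, and the array row of each was selected on measured level, keeping, among rows that name exactly 1 gene, the one whose mean across the 8 arrays was highest; every one of the 10 had 1 such row, so the level decided no choice. The list was drawn up with earlier results of these data known, so the number of its genes that differ is a description and not independent evidence about the pathway. Liver RNA of 8 mice was hybridised to Affymetrix Mouse Gene 2.0 ST arrays, 1 array per sample. Of these, 4 are labelled wild-type and 4 IL-10 knockout, and the design text counts 4 mice of each. Both groups are described as C57BL/6 females aged 6 weeks that received 3% dextran sulfate sodium (DSS) in drinking water over 7 days, which injures the colon lining and gives colitis. The knockout lacks interleukin-10, a cytokine that restrains inflammation, in the whole animal as far as the labels go, and no mice without DSS enter this comparison. The labels give no animal numbers or litters, and every p-value here refers to the spread among the 8 arrays as labelled.

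LPS, a component of the outer membrane of Gram-negative bacteria, reaches the liver from the gut through the portal blood. Lbp in plasma extracts it and hands it to Cd14, which loads it onto the complex of Tlr4 and its partner Ly96 (MD-2), and Tlr4 then signals through Myd88 and, by a separate branch, Ticam1. Tlr2 pairs with Tlr1 or Tlr6 to bind bacterial lipopeptides, Tlr5 binds flagellin, and Irak3 (IRAK-M) holds back the kinases that Myd88 recruits. In liver, Kupffer cells, sinusoidal endothelium, recruited leukocytes and hepatocytes carry parts of this system, and Lbp is a hepatocyte product of the acute-phase response.

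Values are log2 levels from robust multi-array averaging (RMA), and a difference is the mean of arrays labelled knockout minus the mean of wild-type arrays, on that log2 scale. Array medians over the 22180 genes lay between 6.55 and 6.67. Levels of different genes come from different probes, so their order is not read as an order of abundance. A gene is said to have risen or fallen when its limma p-value, adjusted by Benjamini-Hochberg over all 22180 genes, was below 0.05. By that rule 3.15% of all genes were called, 1.56% (347) higher and 1.59% (352) lower. The count leaned on single arrays: without wild-type replicates 1 to 4 the higher genes numbered 111, 114, 141 and 201, and 109 without replicate 4 of the arrays labelled knockout. Against their labels, 4 arrays carried signal of the Y chromosome, namely replicates 1 and 2 of each group, with Y-linked genes between 8.03 and 8.71 and Xist between 5.62 and 6.32. Replicates 3 and 4 of each group had Xist between 11.68 and 11.82 and the Y-linked genes between 4.08 and 4.61. The differences of the 10 genes and the counts of each gene list are therefore also given within the 4 arrays with Xist signal (the Xist set) and the 4 with Y-linked signal (the Y-linked set). For the targeted gene Il10 (row 17216990) the arrays labelled knockout read higher (5.97 ± 0.32 against 4.97 ± 0.08 in wild-type arrays, SD, n = 4 each); the sources used here do not place its probes relative to the mutation, so all directions given here are taken from the labels.

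Of the 10 genes, 5 rose in the arrays labelled knockout and none fell. Those that rose were Cd14, Lbp, Tlr4, Myd88 and Irak3, against 1.56% of all genes that were called higher. Levels of Ly96, Tlr1, Tlr2, Tlr5 and Tlr6 did not pass. By limma 6 of the 10 were higher and 1 lower at an unadjusted p under 0.05, against 2529 and 2171 of all 22180 genes. A per-gene linear model without moderation called 0 of the 10 and 0 of all 22180 genes. The median difference over the 10 was 0.51 against 0.03 over all genes, with a range from -0.48 for Ly96 to 2.51 for Cd14. In the 4 arrays with Xist signal alone 4 of the 10 were called higher and 0 lower (0.600% and 0.830% of all genes), and in the 4 with Y-linked signal 2 and 0 (0.460% and 0.311%). With the set as a block in limma, 5 were higher and 0 lower (2.13% and 2.55% of all genes). The count was 3 without wild-type replicate 1 and 3 without wild-type replicate 2.

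**Figure D1:**
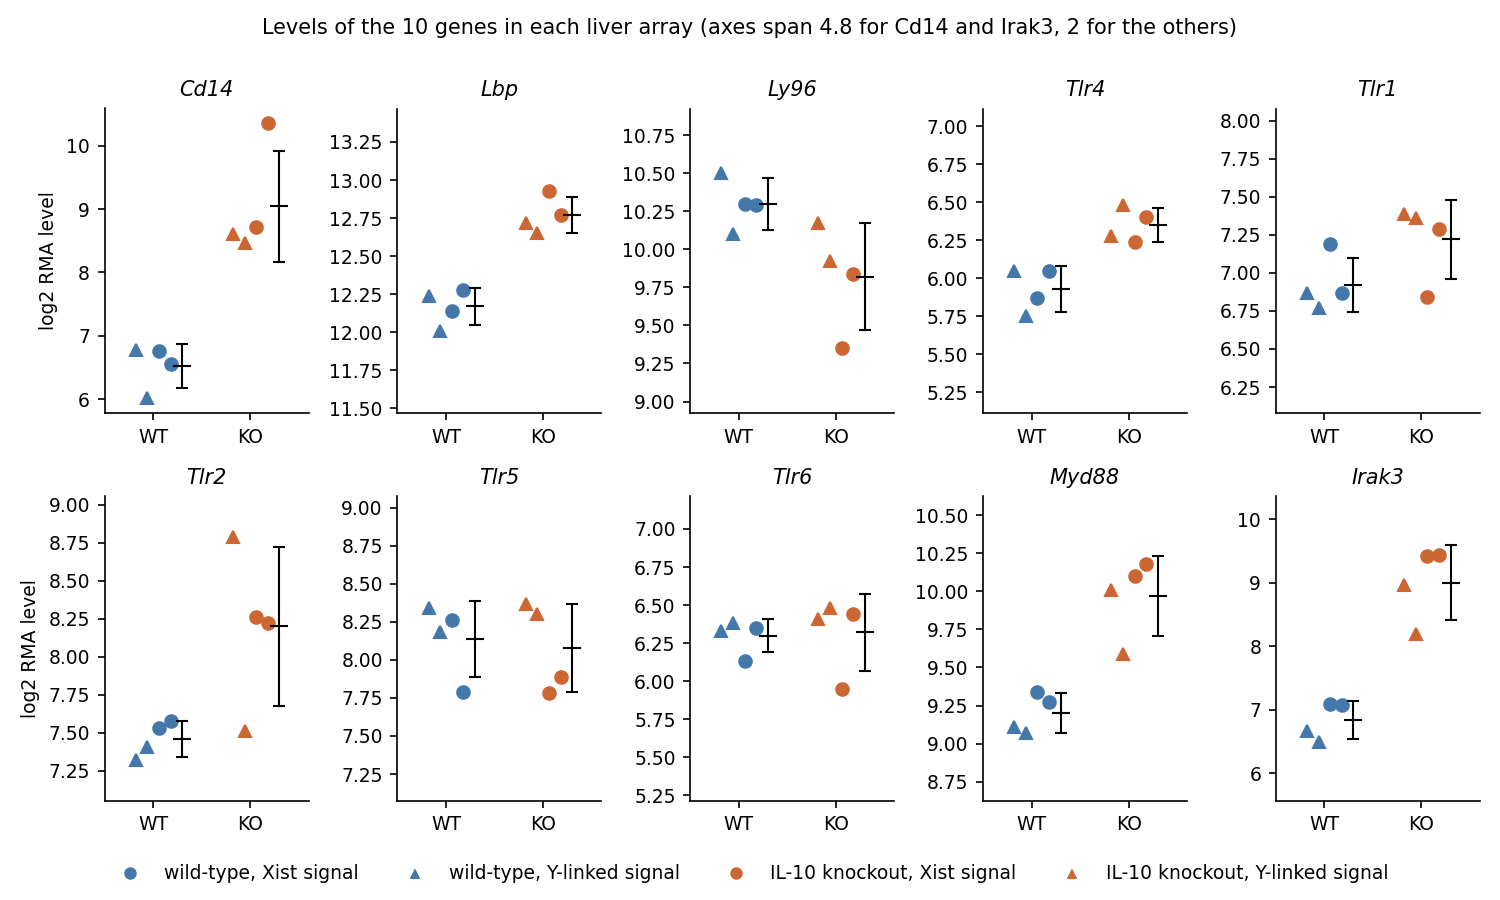
Log2 RMA level of each of the 10 genes in each array. Points are single arrays, circles for arrays with Xist signal and triangles for those with Y-linked signal, blue for wild-type (WT) and orange for arrays labelled IL-10 knockout (KO); black bars are the mean and SD of 4 arrays. Every KO point lies above every WT point for Cd14, Lbp, Tlr4, Myd88 and Irak3, while the groups overlap for the other 5 genes.

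Cd14, the co-receptor that passes LPS to the Tlr4 complex, showed the largest difference of the 10 genes. Wild-type replicates 1 to 4 had levels of 6.77, 6.02, 6.76 and 6.55, and replicates 1 to 4 labelled knockout had 8.60, 8.47, 8.72 and 10.35. The groups were 1.70 apart at their nearest arrays (7.20% of all genes had every array labelled knockout above every wild-type array, and 5.74% the reverse), and replicate 4 labelled knockout stood well above the other 3 of its group. Group means of 6.52 ± 0.35 and 9.04 ± 0.88 (SD, n = 4 each) gave a difference of 2.51 (SE 0.37; limma adjusted p = 0.0105), the fourth largest rise among all genes. Without that high array the difference was 2.07 and the call remained. Within the sets, Cd14 differed by 2.88 (Xist) and 2.14 (Y-linked), and a test of that contrast between sets did not pass (limma interaction adjusted p = 0.928). Adjusted p lay between 0.00515 and 0.113 over 23 alternatives, and the call was lost in the unmoderated model only.

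Lbp, the plasma protein that delivers LPS to Cd14, rose by a smaller step with little scatter. Wild-type replicates 1 to 4 read 12.24, 12.01, 12.14 and 12.28, and the arrays labelled knockout 12.72, 12.65, 12.93 and 12.77. The groups were 0.37 apart, and both had an SD of 0.12. The difference was 0.61 (SE 0.09; n = 4 each; limma adjusted p = 0.00941). Its wild-type mean of 12.17 exceeded that of 99.2% of genes on these arrays. Leaving out any 1 array kept the call (adjusted p up to 0.0370), and the differences within the Xist and Y-linked sets were 0.65 and 0.56, where 4 arrays gave adjusted p = 0.0775 and 0.121.

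Tlr4 and Ly96, which form the LPS receptor together, differed in opposite directions, of which the one for Tlr4 passed. Tlr4 had levels of 6.05, 5.75, 5.87 and 6.05 among wild-type arrays and 6.28, 6.48, 6.24 and 6.40 in those labelled knockout, a gap of 0.19 between the nearest arrays. It rose by 0.42 (SE 0.09, 95% interval 0.22 to 0.62, limma adjusted p = 0.0401) from a mean of 5.93, which lies below the array medians. No detection call comes with these values. The wild-type levels of Tlr4 lie within the range that Xist, with other probes, read in the Y-linked set (5.62 to 6.32). They lie above the range of the Y-linked genes in the Xist set (4.08 to 4.61), so the floor for Tlr4 is unknown. The call was the least stable of the 5: it was lost without any single wild-type array and without KO 2 or KO 4, where WT and KO with a number stand for single arrays of the wild-type and knockout-labelled groups (adjusted p at most 0.114), with every row tested (0.0804), with a common median per array (0.0694), quantile normalization (0.0827) or cyclic loess (0.0888), and with the replicate number as a block (0.0806). Tlr4 differed by 0.36 in the Xist set (limma adjusted p = 0.255) and 0.48 in the Y-linked set (0.251), passing in neither, and over 23 alternatives adjusted p ran from 0.0285 to 0.255. Ly96, the small secreted protein that holds LPS within the complex, read 10.50, 10.10, 10.30 and 10.29 in wild-type arrays and 10.17, 9.92, 9.35 and 9.84 in the others. Replicate 1 labelled knockout reached into the wild-type range, and replicate 3 was the lowest of all 8. The Ly96 difference of -0.48 (95% interval -0.83 to -0.12; limma adjusted p = 0.130) did not pass, and it was -0.70 in the Xist set and -0.25 in the Y-linked set. Differences kept these signs under every alternative run, from 0.34 to 0.48 for Tlr4 and from -0.70 to -0.25 for Ly96.

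**Figure D2:**
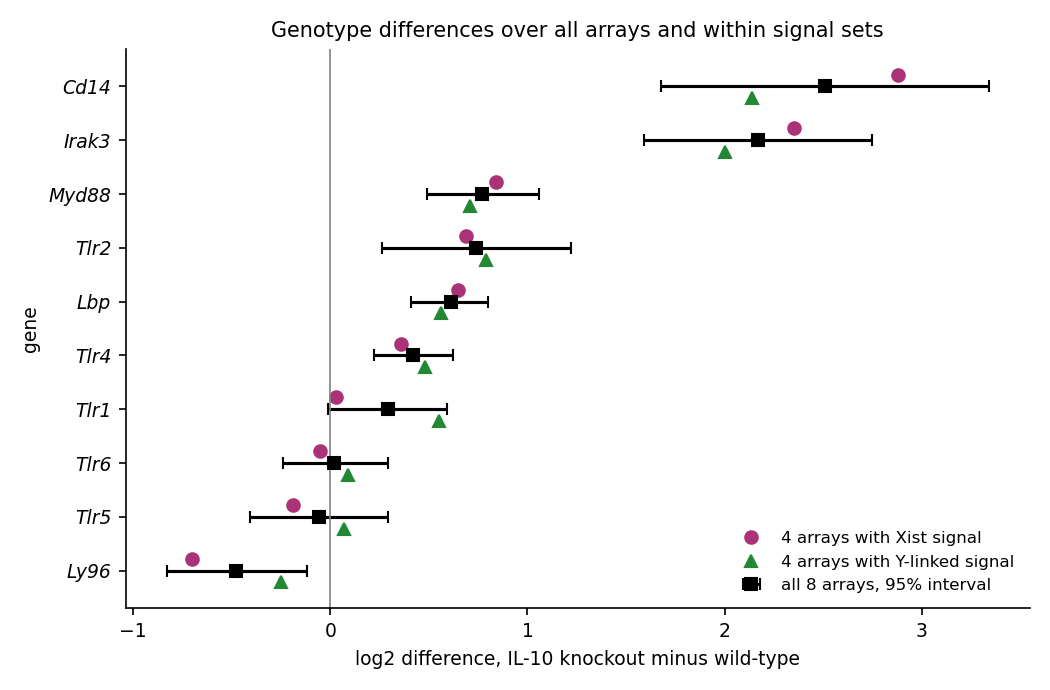
Log2 difference between arrays labelled IL-10 knockout and wild-type arrays for each gene. Squares are the estimate over all 8 arrays with its 95% interval from limma, circles the estimate in the 4 arrays with Xist signal and triangles that in the 4 with Y-linked signal. Both sets place Cd14 and Irak3 at 2.00 or above and Ly96 below 0, and the interval of Tlr5 runs from -0.41 to 0.29.

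Myd88, the adaptor shared by all the receptors named here, rose together with Irak3, the inhibitor that acts just below it. Myd88 read 9.11, 9.07, 9.34 and 9.27 in wild-type arrays and 10.01, 9.59, 10.10 and 10.18 in those labelled knockout. The groups were 0.26 apart, and replicate 2 labelled knockout was the lowest of its group. The difference was 0.77 (SE 0.13; n = 4 each; limma adjusted p = 0.0151), with 0.84 in the Xist set and 0.71 in the Y-linked set (adjusted p = 0.0285 and 0.121). Dropping WT 1 or WT 2 ended the call (adjusted p at most 0.0533; range over 23 alternatives 0.00445 to 0.121).

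Irak3 read 6.67, 6.49, 7.09 and 7.08 in wild-type arrays and 8.96, 8.19, 9.42 and 9.44 in arrays labelled knockout. The groups lay 1.10 apart, and again replicate 2 labelled knockout was the lowest of its group. The SD was 0.30 among wild-type arrays and 0.59 among the others (n = 4 each), and the means differed by 2.17 (SE 0.26; limma adjusted p = 0.00605). The p-value was the smallest of the 10 genes and ranked 29 of all genes. The difference passed within each set of 4 arrays, at 2.35 with Xist signal (adjusted p = 0.00107) and 2.00 with Y-linked signal (adjusted p = 0.0278), and the contrast between the sets did not pass (limma interaction adjusted p = 0.928). No array left out ended the call (adjusted p up to 0.0240), and over 23 alternatives adjusted p lay between 0.000644 and 0.0853, the highest from the unmoderated model. RefSeq lists 3 long noncoding RNA genes that overlap Irak3 (Gm34545, Gm40781 and Gm38500), and whether its probes also read any of these is not known here.

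Upstream sequence of Myd88 and Irak3 is shown because both rose while standing next to each other in the pathway, and Tlr2 is added as the receptor with the largest difference that did not pass. RefSeq promoter windows of GRCm38.p6 were found for 6 of the 10 genes (9 windows), and the 250 bases before each start were searched on both strands for an NF-kB consensus of 10 letters, a STAT motif (TTCNNNGAA), an interferon-response-like motif (GAAA, 2 bases of any kind, GAAA) and an AP-1 motif (TGANTCA). Capitals mark matches; each sequence runs 5′ to 3′ on the gene's strand.
Myd88, chr9:119340019-119340268, minus strand: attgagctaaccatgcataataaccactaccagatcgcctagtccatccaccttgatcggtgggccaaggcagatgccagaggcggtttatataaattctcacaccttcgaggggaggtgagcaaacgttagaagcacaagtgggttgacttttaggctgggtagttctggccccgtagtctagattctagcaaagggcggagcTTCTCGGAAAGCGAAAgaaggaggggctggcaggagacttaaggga
Irak3, chr10:120202131-120202380, minus strand: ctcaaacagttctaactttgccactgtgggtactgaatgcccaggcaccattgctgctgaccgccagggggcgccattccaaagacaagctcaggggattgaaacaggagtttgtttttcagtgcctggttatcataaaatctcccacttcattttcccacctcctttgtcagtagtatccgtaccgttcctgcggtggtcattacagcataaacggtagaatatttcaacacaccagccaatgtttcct
Tlr2, chr3:83841762-83841790, minus strand: aggacacctGGGGAATTCCCacacggagc
The Myd88 stretch held a STAT match from 46 to 38 bases before the start and an interferon-response-like match from 40 to 31 bases before it, which overlap. The Tlr2 stretch is the surrounding of NF-kB matches between 173 and 163 bases before a start that RefSeq places inside the gene, and these also overlap each other. Neither of the Irak3 windows held any of the 4 motifs, and 4 of the 9 windows held at least 1. Of the genes not shown, Tlr1 held a STAT match from 228 to 220 bases before a start. Tlr6 held interferon-response-like matches between 116 and 101 bases before a start. Neither Tlr1 nor Tlr6 passed. Among all 32851 windows of the same length, 3.90% held the NF-kB consensus, 7.02% the STAT motif, 2.98% the interferon-response-like motif and 6.75% the AP-1 motif. The share with at least 1 of the 4 motifs was not computed, so the count of 4 of 9 windows has no background here. A match describes letters in this window and says nothing of binding.

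Among the lipopeptide receptors, Tlr2 had the largest difference without passing. Wild-type arrays were close together at 7.32, 7.41, 7.53 and 7.58, and the arrays labelled knockout were spread over 8.79, 7.51, 8.26 and 8.22. Replicate 2 labelled knockout lay inside the wild-type range and the other 3 lay above it. Group means of 7.46 ± 0.12 and 8.20 ± 0.52 (SD, n = 4 each) gave a difference of 0.74 (95% interval 0.26 to 1.22; limma adjusted p = 0.0920). Without replicate 2 labelled knockout it was 0.96 with adjusted p = 0.0155, and without replicate 1 of that group 0.54; over 23 alternatives adjusted p ran from 0.0155 to 0.509. The difference was 0.69 in the Xist set (adjusted p = 0.0495) and 0.79 in the Y-linked set (adjusted p = 0.509).

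Tlr1 and Tlr6, the partners of Tlr2, lie next to each other in the RefSeq gene order and resemble each other closely in sequence. Probes could therefore read both, and the levels of both genes are uncertain. RefSeq also lists the protein-coding gene Fam114a1 and the microRNA Mir574 as overlapping Tlr6. Whether the Tlr6 probes read either of them is not known here. Tlr1 read 6.87, 6.77, 7.19 and 6.87 in wild-type arrays and 7.39, 7.36, 6.84 and 7.29 in the others. Of the arrays labelled knockout, 3 lay above all wild-type arrays and replicate 3 lay among the lowest, so the groups overlapped. Its difference of 0.29 (95% interval -0.01 to 0.59; limma adjusted p = 0.244) was 0.03 in the Xist set and 0.55 in the Y-linked set (limma interaction unadjusted p = 0.0518, adjusted p = 0.904). Tlr6 read 6.33, 6.38, 6.13 and 6.35 in wild-type arrays and 6.41, 6.48, 5.95 and 6.44 in those labelled knockout. Of the arrays labelled knockout, 3 lay above every wild-type array and replicate 3 lay below all of them. The difference was 0.02 (95% interval -0.24 to 0.29; limma adjusted p = 0.935), and 0.14 without replicate 3. It was -0.05 in the Xist set and 0.09 in the Y-linked set, and its sign turned with a common median per array (-0.03), quantile normalization (-0.05) and cyclic loess (-0.05).

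Tlr5, the flagellin receptor, read 8.34, 8.18, 8.26 and 7.79 in wild-type arrays and 8.37, 8.30, 7.78 and 7.89 in those labelled knockout. Low values of 7.78 to 7.89 occurred in both groups, and only in arrays with Xist signal. The difference was -0.06 (95% interval -0.41 to 0.29; limma adjusted p = 0.855), and its sign turned with array weights (0.01); it was -0.19 in the Xist set and 0.07 in the Y-linked set. The intervals of Tlr5 and Tlr6 leave room for differences of up to 0.41 and 0.29 on the log2 scale. Both limits lie below the intervals of Cd14 and Irak3, which start at 1.68 and 1.59. The interval of Tlr4, from 0.22 to 0.62, overlaps those of Tlr5 and Tlr6.

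**Figure D3:**
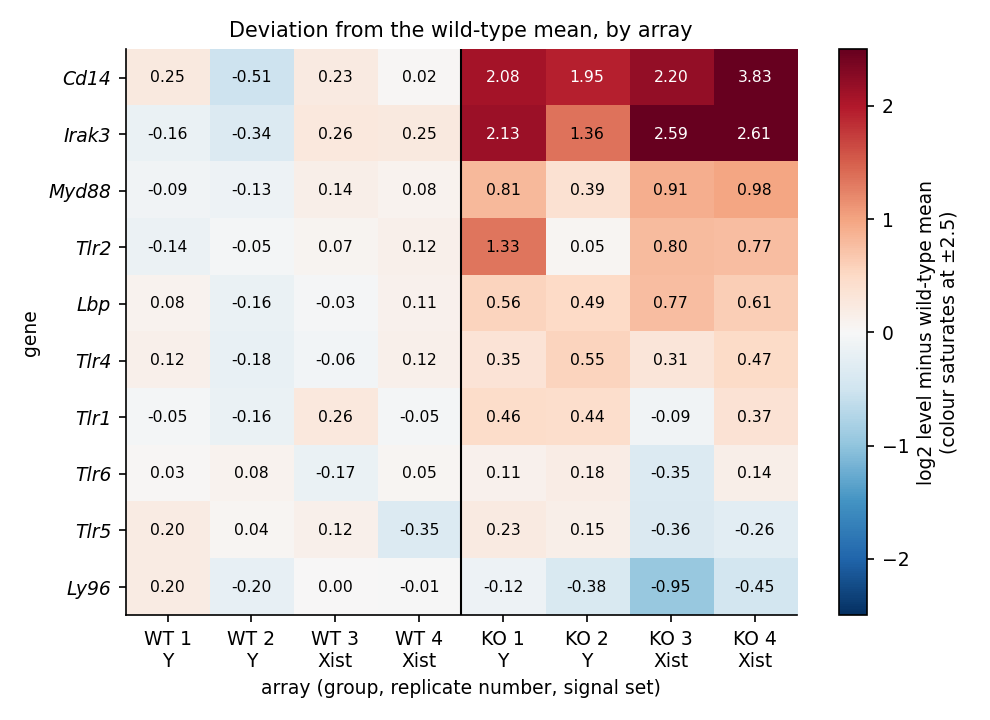
Deviation of each gene from its wild-type mean, on the log2 scale, in each of the 8 arrays; red is above and blue below the wild-type mean, and the number is the value. Rows are ordered by the difference between groups. Replicate 2 labelled knockout (KO 2) is palest in the upper rows, with 0.05 for Tlr2 and 0.39 for Myd88, and replicate 3 (KO 3) is bluest in the lower rows, with -0.95 for Ly96.

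Within the arrays labelled knockout, the lowest array of each gene was either replicate 2 or replicate 3. The margin was small for some genes, such as Tlr4, with 6.24 in replicate 3 and 6.28 in replicate 1. For Cd14, Lbp, Tlr2, Myd88 and Irak3 the lowest array was replicate 2, and for Ly96, Tlr4, Tlr1, Tlr5 and Tlr6 it was replicate 3. Replicates 1 and 4 were lowest for 0 of the 10 genes. Over all genes, the lowest array of this group was replicate 1 for 24.6%, replicate 2 for 25.4%, replicate 3 for 27.6% and replicate 4 for 22.4%. In the wild-type group replicate 2 was the lowest array for 7 of the 10 genes, against 29.4% of all genes. Cd14, Myd88 and Irak3 all had their highest value in replicate 4 labelled knockout, which was the highest array of its group for 20.1% of all genes. This is a description of 4 arrays per group, with no test.

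By the likeness of profiles over the 8 arrays, the genes nearest to Cd14 and Irak3 included several neutrophil markers with large differences. Likeness was taken as the root mean square difference between log2 profiles, each centred on its mean over 8 arrays. The genes nearest to Irak3 were Il1rn, which blocks the interleukin-1 receptor (0.16), the neutrophil collagenase Mmp8 (0.23), the calcium-binding protein S100a8 of neutrophils and monocytes (0.28), the neutrophil granule gene Ngp (0.31) and Mid1 (0.38). Il1rn repeated the order of Irak3 in the arrays labelled knockout, with 9.36, 8.27, 9.55 and 9.83. Nearest to Cd14 were Ms4a8a (0.42), Mmp8 (0.46), Ngp (0.47), Irak3 (0.50) and Chil1 (0.50), while Lbp was 1.11 and Tlr4 1.19 away. The profile of Lbp was nearest to those of Kcnk6, Jdp2, Trmt61a and Hspb8 (0.08 each) and Bet1l (0.09), with Tlr4 at 0.16 and Myd88 at 0.17. A distance of this kind also depends on the size of the difference, so these are genes that differ by about as much as each of the 3. Other neutrophil markers differed by far less, such as Elane (0.06) and Csf3r (0.43).

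Several markers of myeloid cells rose beside these genes. Limma called none of the lymphocyte markers, which does not show that they were unchanged. Of 13 neutrophil markers 10 rose, and the sum of their levels on the linear scale ran from 1084 to 1407 in wild-type arrays and from 2079 to 3544 in arrays labelled knockout. In the Xist and Y-linked sets 8 and 4 of the 13 were called. Of all genes limma called 1.56% higher and 1.59% lower, with 0.600% and 0.830% in the Xist set and 0.460% and 0.311% in the Y-linked set. Of 13 Kupffer cell and macrophage markers 6 rose (sums 10493 to 12688 and 15714 to 18898), and of 10 monocyte and dendritic cell markers 4 rose (1174 to 1235 and 1408 to 1831). The macrophage count was 1 in each set and 11 with array weights, and the monocyte and dendritic cell count 0 in the Xist set and 2 in the Y-linked set. Of 10 sinusoidal endothelial markers Lyve1 rose and the sums overlapped (10567 to 12860 and 12634 to 13819). Of 12 hepatocyte markers Tat rose and the sums overlapped (79666 to 83057 and 80259 to 85528). The lowest of these 12 had a mean of 7.75, above the array medians of all genes. Alb, at a wild-type mean of 13.63, lay near the highest value measured (13.77). Every array labelled knockout lay below every wild-type array for Alb (-0.12) and Ttr (-0.16), and above for Tat (0.51) and Hnf4a (0.17). Of all genes 5.74% lay below in this way and 7.20% above. Of 9 stellate cell markers Lrat fell (6071 to 7556 and 3884 to 6667). The endothelial count was 1 in each set, the hepatocyte count 0 in each, the stellate count 1 lower in the Xist set and 0 in the Y-linked set, and the lymphocyte counts 0 in each. Limma called 0 of 6 B cell and 0 of 9 T and NK cell markers, and the unmoderated model called 0 in each list. At an unadjusted limma p under 0.05, 0 and 1 were higher and 0 lower, against 2529 higher and 2171 lower of all 22180 genes. The sums were 503 to 572 and 493 to 538 for B cell markers, and 495 to 656 and 643 to 704 for T and NK cell markers. Of the T and NK cell markers 8 differed upward and 1 downward, with a median of 0.15 against 0.03 over all genes. Of the B cell markers 2 differed upward and 4 downward (median -0.08). RMA levels have no 0 and no detection call, and the lowest neutrophil marker was Camp, with a mean of 4.73. The lowest T and NK cell marker was Gzma (4.22) and the lowest B cell marker Jchain (4.95). The part of these cells in the rises of Cd14, Irak3, Myd88 and Tlr4 was not tested, and in RNA of whole liver a change in cell number and a change in RNA per cell cannot be told apart.

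**Figure D4:**
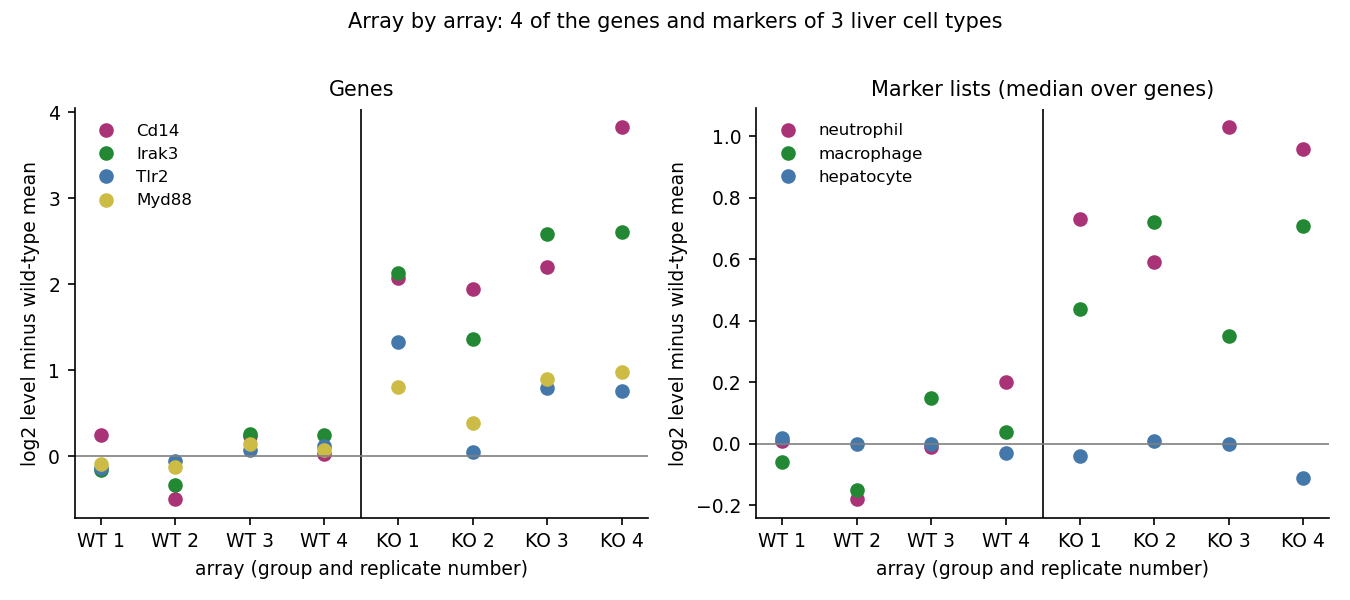
Log2 level minus the wild-type mean in each array, for Cd14, Irak3, Tlr2 and Myd88 on the left and, on the right, the median over 13 neutrophil, 13 macrophage and 12 hepatocyte markers. In arrays labelled knockout the neutrophil median is 0.73, 0.59, 1.03 and 0.96 in replicates 1 to 4, the macrophage median 0.44, 0.72, 0.35 and 0.71, and the hepatocyte median stays between -0.11 and 0.01.

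Array by array, the neutrophil median was lowest in replicate 2 labelled knockout, as were Cd14, Irak3, Myd88, Tlr2 and also Lbp, a hepatocyte product. It was highest in replicate 3 (1.03), whereas Cd14, Irak3 and Myd88 were highest in replicate 4, Tlr2 in replicate 1 and Lbp in replicate 3. The macrophage median was lowest in replicate 3 (0.35), as were Ly96, Tlr4, Tlr1, Tlr5 and Tlr6. It was highest in replicate 2 (0.72), as were Tlr4 and Tlr6, whereas Ly96, Tlr1 and Tlr5 were highest in replicate 1. Replicate 2 was also lowest for the stellate cell median (-0.59), and replicate 3 for the monocyte and dendritic cell median (0.16), so neither low array was particular to 1 marker list. The hepatocyte and B cell medians were lowest in replicate 4 (-0.11 and -0.16). The endothelial and the T and NK cell medians were lowest in replicate 1 (0.02 and 0.11). With 4 arrays in the group these orders are given as values, with no test.

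The lists of other pathway genes differed in their counts. Over all genes, limma called 0.600% higher and 0.830% lower in the Xist set, and 0.460% and 0.311% in the Y-linked set. Adaptors, kinases and transcription factors that carry the signal onward had 0 of 19 measured genes called by limma, and 0 by the unmoderated model. At an unadjusted limma p under 0.05, 3 of the 19 were higher and 0 lower, against 2529 and 2171 of all 22180 genes. The median difference was 0.03, with a range from -0.18 for Irak2 to 0.33 for Ikbke. Among the 19 were the adaptors Tirap (-0.12) and Ticam1 (0.26), the kinase Irak1 (-0.14) and the ubiquitin ligase Traf6 (-0.00), none of which passed. In the Xist set and in the Y-linked set 0 of the 19 were called. Irak4, Traf3, Chuk and Irf5 occur in no row that names them alone and are not analysed here.

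Inhibitors of the pathway other than Irak3 gave 4 rises and 0 falls among 14 measured (1.56% and 1.59% of all genes). Their median difference was 0.23. Those that rose were Zc3h12a, a nuclease that degrades inflammatory transcripts (0.94, limma adjusted p = 0.00844), Nfkbia, which holds NF-kB in the cytoplasm (0.62, 0.0259), the lipid phosphatase Inpp5d (0.40, 0.0316) and Tnfaip3, the enzyme A20 (1.11, 0.0412). Zc3h12a kept its call without any 1 array. Leaving out WT 2, WT 3, WT 4 or KO 4 ended the call of Nfkbia (adjusted p at most 0.0790). For Inpp5d the same held for WT 1, WT 2, WT 4, KO 2, KO 3 and KO 4 (at most 0.0951), and for Tnfaip3 for each WT array, KO 3 and KO 4 (at most 0.107). Both also lost their calls with a common median per array (0.0517 and 0.0529), and over 23 alternatives adjusted p ran from 0.0137 to 0.320 for Inpp5d and from 0.0146 to 0.221 for Tnfaip3. In the Xist set 1 of the 14 was called and in the Y-linked set 0.

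Of 22 cofactors and handlers of bacterial products, 5 rose and 0 fell (1.56% and 1.59% of all genes), with a median difference of 0.19. The 4 with the smallest p were the integrin chains Itgb2 (0.57; limma adjusted p = 0.00795) and Itgam (0.71; 0.0334), which pair as complement receptor of myeloid cells, Pltp, a lipid transfer protein related to Lbp (0.53; 0.0152), and Pglyrp1, a neutrophil protein that binds peptidoglycan (0.89; 0.0355). Itgb2 kept its call with each array left out in turn. The call of Pltp ended when WT 1, WT 2 or KO 4 was dropped (limma adjusted p at most 0.0535), that of Itgam when WT 1, WT 2, WT 4, KO 3 or KO 4 was dropped (at most 0.0923), and that of Pglyrp1 when any WT array or KO 4 was dropped (at most 0.106). Cd180 (-0.11), a relative of Tlr4 that lacks a signalling domain, and its partner Ly86 (0.55), a relative of Ly96, did not pass. In the Xist set 2 of the 22 were called and in the Y-linked set 1.

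Among 25 transcripts that LPS is known to induce, 7 rose and 0 fell (1.56% and 1.59% of all genes). Their median difference was 0.31. The 4 with the smallest p were Saa3, an acute-phase protein (3.37; limma adjusted p = 0.00267), Il1rn (2.11; 0.00851), the adhesion molecule Icam1 (0.91; 0.0143) and Sod2, the mitochondrial superoxide dismutase (0.70; 0.0188). Saa3, Il1rn and Icam1 stayed called with each array left out in turn, and the call of Sod2 ended when WT 1 or WT 2 was dropped (limma adjusted p at most 0.0523). In the Xist set 3 of the 25 were called and in the Y-linked set 2. The cytokines Tnf (0.19), Il1b (-0.02) and Il6 (-0.22, limma adjusted p = 0.178) did not pass. The wild-type mean of Il6 lay above that of 11.3% of genes, and where the floor lies is unknown here. In the same list the cytokine Csf3 (0.39, limma adjusted p = 0.0338) and the chemokine Cxcl2 (0.68, 0.032) rose, while its other chemokines did not pass. Csf3 and Cxcl2 were not followed through the alternatives.

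The endosomal Toll-like receptors, which read nucleic acids and in mouse also profilin, gave 4 rises among 7 genes, beside 1 rise (Tlr4) among the 5 surface receptors. Of all genes 1.56% rose. Tlr13 (0.84; limma adjusted p = 0.00587), Tlr8 (0.69; 0.00699), Tlr9 (0.43; 0.0360) and Tlr11 (0.39; 0.0386) rose, with a list median of 0.39. Tlr13 read 7.08, 6.91, 7.14 and 7.05 in wild-type arrays and 7.75, 7.77, 8.06 and 7.96 in those labelled knockout, so it rose with a narrower spread than Tlr2. The call of Tlr9 ended when any WT array, KO 2 or KO 4 was dropped (limma adjusted p at most 0.0976), and that of Tlr11 when any array except KO 3 was dropped (at most 0.113). Both calls also ended with a common median per array (0.0570 and 0.0645), that of Tlr11 also with quantile normalization (0.0627) and cyclic loess (0.0692), and neither gene passed in the Xist set (0.199 and 0.254) or the Y-linked set (0.272 and 0.271). Over its alternatives adjusted p ran from 0.0269 to 0.272 for Tlr9 and from 0.0260 to 0.271 for Tlr11. In the Xist set 1 of the 7 receptors was called and in the Y-linked set 2. Whether the surface and endosomal receptors differ as groups was not tested.

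**Figure D5:**
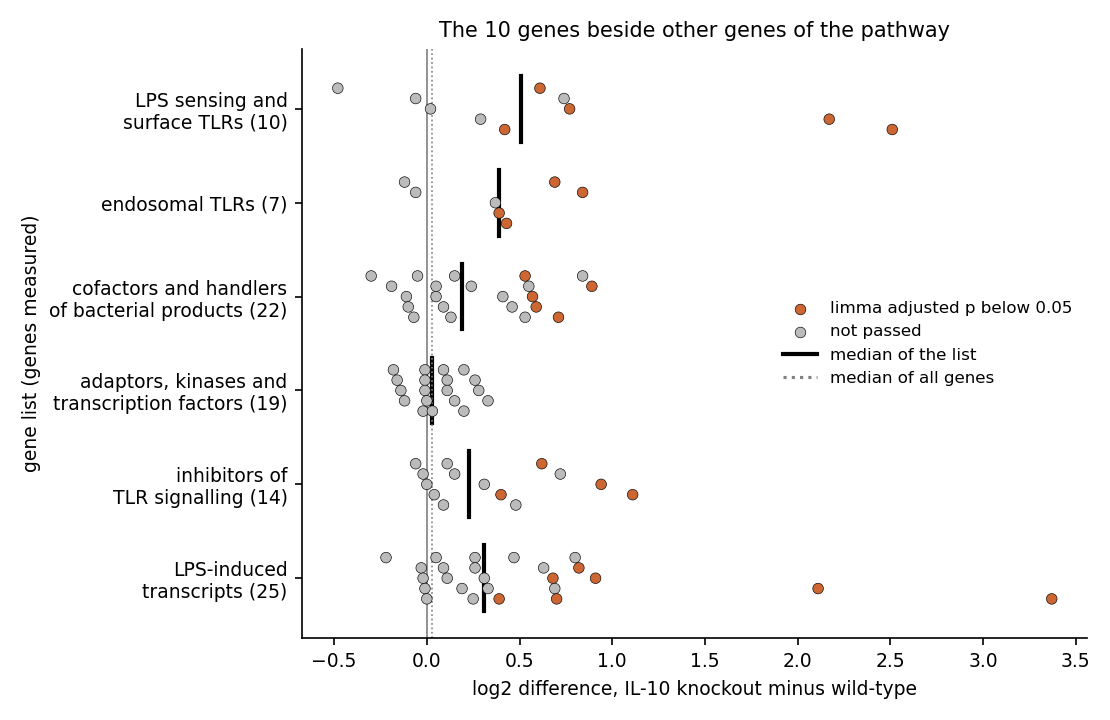
Log2 difference between arrays labelled IL-10 knockout and wild-type arrays for every measured gene of the 6 lists, 1 point per gene; orange points passed limma's adjusted p of 0.05 and grey ones did not, thick black lines are list medians and the dotted line is the median of all genes (0.03). The adaptor and kinase list has no orange point and lies between -0.18 and 0.33, whereas Cd14 and Irak3 in the first row and Il1rn and Saa3 in the last lie above 2.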

How the data were processed

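The deposited values are log2 levels that the authors made with RMA; the submitters' processing notes name R 3.0.1. Further settings and the genome build behind the probes were not stated. The table holds 41345 rows and 8 arrays, and values run from 2.49 to 13.77. Rows were named through the platform annotation: 23521 name 1 gene, 1814 several and 16010 are unlisted; 22180 genes resulted, with the row of highest mean kept. All genes were fitted with limma 3.58.1 (lmFit, eBayes) in R 4.3.3 on 8 arrays without covariates or filter, and calls needed a Benjamini-Hochberg adjusted p below 0.05. The main limma fit was tested on simulated data with independent noise for each gene, and the other steps were not. Genes named were the 10 and up to 4 called genes of each pathway list with the smallest p. The 5 nearest profiles of Cd14, Irak3 and Lbp were also named, skipping predicted genes. Elane, Csf3r, Tnf, Il1b, Csf3, Cxcl2, Ly86, Cd180, Tirap, Ticam1, Irak1, Traf6 and the ends of ranges were named after their values were seen. The genes, lists and alternatives were chosen with earlier results of these data known. Promoter windows came from RefSeq (GRCm38.p6). Both groups use replicate numbers 1 to 4, which the labels tie to nothing, and same-numbered arrays did not all deviate together (correlations 0.27, 0.04, -0.10 and 0.29), so the fit is unpaired. No 2 arrays differed by less than a root mean square of 0.26, so none was counted as a repeat; the number of arrays limits precision. Figures used matplotlib 3.10.9 in Python 3.11.15.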

Additional observations from a re-analysis of the deposited data

Results flagged for a closer look

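In groups of 4 arrays, a sample was singled out when its gap to the nearest other array, divided by the group's range, exceeded Dixon's critical value; this happened in 4 of 54 groups looked at (27 genes), where chance gives about 1 in 20. Cd14 read 10.35 in knockout-labelled replicate 4, against 8.47 to 8.72 in the other arrays of its group. Tlr6 read 5.95 in knockout-labelled replicate 3, against 6.41 to 6.48. Sod2 read 12.43 in knockout-labelled replicate 4, and Pltp 10.54 in knockout-labelled replicate 1.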

How the results depend on the processing

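Cd14 and Irak3 kept their direction in all alternatives and their call in all but the unmoderated model. Members called higher numbered 0 in the unmoderated model and 2 in the Y-linked set, against 5, and 3 to 5 with 1 array left out; members called lower numbered 0 throughout. Over all genes, higher and lower calls were 170 and 162 with every row tested, 0 and 0 in the unmoderated model, 133 and 184 in the Xist set, 102 and 69 in the Y-linked set, 844 and 841 at an adjusted p below 0.1, and 179 and 198 with a 1.5-fold minimum. Lower calls were 565 with the sets as a block, and higher calls 225 with the replicate number as a block. With 1 array left out, higher calls ran from 109 to 429 and lower calls from 96 to 611. A common median per array turned the split to 236 higher and 393 lower. With the replicate block 4 members were called, Tlr4 being lost, and among the 16 pathway genes followed through the alternatives Inpp5d (adjusted p = 0.0658), Sod2 (0.0541), Tlr9 (0.0699) and Tlr11 (0.0623) lost their calls. Signs turned for Tlr5 with array weights (0.01) and in the Y-linked set (0.07), between -0.18 and 0.04 with 1 array left out, and for Tlr6 with a common median (-0.03), quantile normalization (-0.05), cyclic loess (-0.05) and in the Xist set (-0.05), between -0.03 and 0.14 with 1 array left out. Counts of the pathway lists in the signal sets were added after seeing the data. The causes were not tested; sets of 4 arrays have fewer samples and the full table more rows. Where the floor lies for low levels such as those of Tlr4 is unknown here.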
